A study of Sus scrofa with 12 samples.

Results

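Collagens are proteins of 3 chains wound into a triple helix, and each chain has its own gene. Fibrillar chains build the banded fibres of skin, bone, tendon and cartilage. Basement membrane chains (type IV) form the sheet under epithelia, network chains (types VIII and X) form lattices, and FACIT chains (fibril-associated collagens with interrupted triple helices) sit on the surface of fibres. Fibroblasts are the textbook producers of fibrillar collagen, while early embryonic epithelia lay down type IV collagen. The roles named below are known mainly from human and mouse.

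The collagen chain genes described here are the rows of the deposited pig expression table whose annotated symbol has the form COL, number, A, number. Rows whose status was neither KNOWN nor NEW_AS were left out, and where a symbol had several rows the row with the highest mean over all libraries was taken. This gave 41 chains among 30012 rows, out of 60 collagen rows. The 41 comprise 10 fibrillar chains, 6 basement membrane chains, 3 network chains, 8 FACIT chains and 14 chains of other classes. Another 4 chains, COL9A3, COL20A1, COL24A1 and COL6A6, were not analysed here.

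The study sequenced polyA RNA from pig cells of 4 kinds, with 12 libraries in all and 3 for each kind. These were the parthenogenetic embryonic stem cell (ESC) lines ESC-7 and ESC-3, the IVF-derived line ESC-11, and fetal fibroblasts as somatic control, here called ESC7, ESC3, ESC11 and fibroblasts. Parthenogenetic lines come from an activated egg with no sperm genome, and IVF stands for in vitro fertilisation. All ESCs grew on feeder cells in a serum-replacement medium with FGF2 (20 ng/ml), ActA (5 ng/ml), CH (1.5 µM) and IWR-1 (2.5 µM), with Y-27632 around passaging. They were sorted for SSEA1, a surface marker of undifferentiated pig ESCs, on magnetic columns, a step meant to take out feeder and differentiated cells. The fibroblasts came from a day 30 fetus and were at passage 6, and their medium is not given. Each group is 1 line or 1 fetal culture, so a line and its embryo of origin cannot be told apart. The labels do not say that the 3 libraries of a group were separate cultures, so a p-value speaks of library-to-library spread alone, and that spread may be technical.

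The authors deposited FPKM, fragments counted per kilobase of transcript and scaled to the mapped fragments of each library. From 21898 to 24100 rows were above 0 per library, and read depth is unknown because no counts were given. The markers went with the labels. The 4 measured pluripotency markers POU5F1, SOX2, NANOG and DNMT3B summed to 1842 to 2073 FPKM in ESC libraries and to 1.30 to 1.73 FPKM in fibroblast libraries. The 7 measured fibroblast markers outside the collagens summed to 52.6 to 80.7 FPKM in ESCs and to 8137 to 8385 FPKM in fibroblasts. COL1A1 and COL3A1, the collagens that mark matrix-producing fibroblasts, were highest in the fibroblast libraries.

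A chain was tested if its FPKM reached 1 in at least 3 libraries, which 31 of the 41 did. Differences were tested with limma on log2(FPKM + 1), and one was called if its p, adjusted by Benjamini-Hochberg over all 18278 tested loci, was under 0.05 and its size was at least 1 on the log2 scale. The difference therefore understates the change of chains with low FPKM. The 10 chains that were not tested stayed at or below 1.12 FPKM in every library. They were COL4A3 and COL4A4 of the basement membrane, COL10A1 of the network class, the FACITs COL19A1 and COL22A1, and COL6A4, COL6A5, COL13A1, COL23A1 and COL28A1 of other classes. The highest of them was COL6A4, with 0.269 to 1.12 FPKM in ESCs and 0.0229 to 0.0942 FPKM in fibroblasts.

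**Figure D1:**
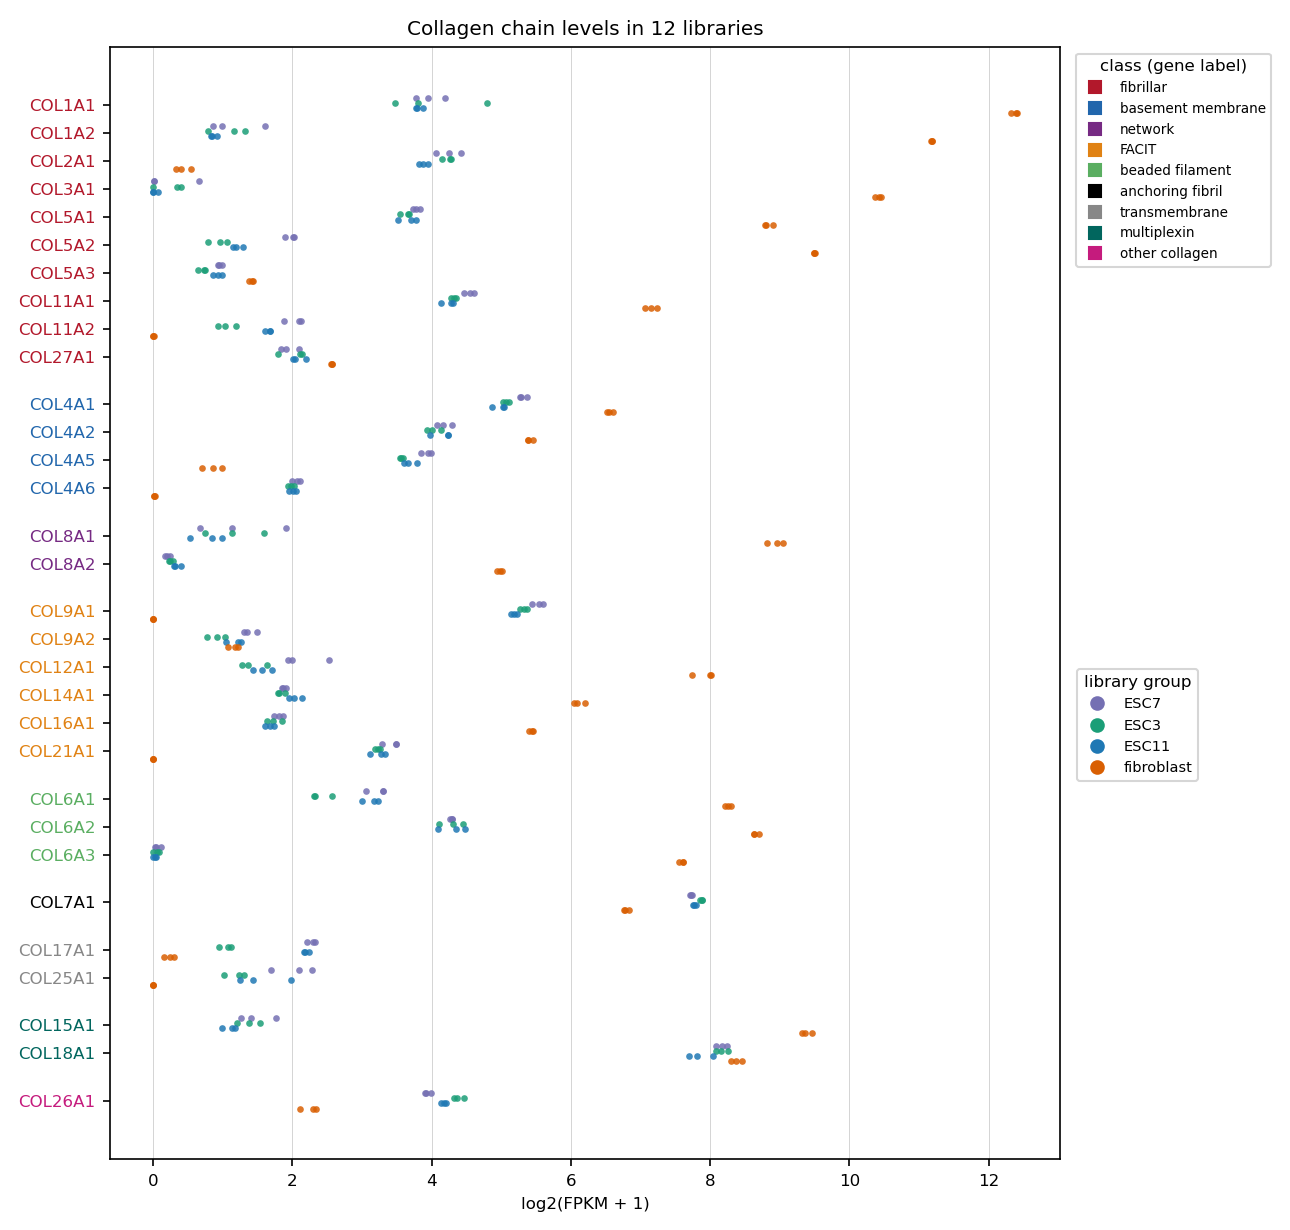
Each point is 1 library, placed by log2(FPKM + 1) on the horizontal axis, for the 31 tested collagen chains grouped by class; colours give ESC7, ESC3, ESC11 and fibroblasts. COL1A1, COL1A2 and COL3A1 of the fibroblast libraries lie farthest right, at 1319 to 5419 FPKM, and COL9A1 and COL21A1 are listed at 0 there.

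Pig ESCs and fibroblasts differed in the level of most tested collagen chains. The fibroblasts carried very high COL1A1, COL1A2 and COL3A1, which ESCs had at a small fraction of that level. ESCs had COL2A1, COL9A1, COL4A5 and COL4A6, which stayed under 1 FPKM in fibroblasts. COL18A1 and COL7A1 were the most abundant chains of the ESCs, and fibroblasts also had them, at means of 331 and 110 FPKM. Of the 31 tested chains 27 were called, with 10 higher in ESCs and 17 lower, where 43.1% of all tested loci were called, 28.1% higher and 14.9% lower. The loci called split into 5144 higher and 2730 lower in the FPKM as deposited, 3489 and 3476 after quantile normalization, and 3511 and 3754 after median-ratio scaling, where the collagen chains split into 8 and 18, and 9 and 17. The median log2 difference was -1.44 over the tested chains and 0.44 over all loci. Among these chains, 8 reached the expression minimum through ESC libraries alone, namely COL2A1, COL4A5, COL4A6, COL9A1, COL11A2, COL17A1, COL21A1 and COL25A1. Another 4, COL3A1, COL5A3, COL6A3 and COL8A2, reached it through fibroblast libraries alone. This fixes the direction of their differences between ESCs and fibroblasts, so the counts describe these chains and carry no test. Of the 19 chains that reached the expression minimum in both, 2 were called higher, 14 lower and 3 were not called. In bulk RNA, fewer cells of a type and less RNA per cell cannot be told apart.

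Fibrillar chains formed the main part of the fibroblast collagen and the smaller part of the ESC collagen. All 10 were tested, 6 fell in ESCs, 2 rose and 2 were not called, where 14.9% of all loci fell and 28.1% rose. The median log2 difference of the 10 was -3.96. COL1A1, COL1A2, COL3A1, COL5A1 and COL5A2, chains of the fibres of skin and tendon, were among those that fell. Of these, COL3A1 had reached the expression minimum through fibroblast libraries alone. COL2A1 and COL11A2, chains of cartilage fibres, rose, and both had reached the expression minimum through ESC libraries alone.

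COL1A1, the major chain of type I collagen (chromosome 12, 26469531 to 26477889, Sscrofa10.2), had 17.2, 12.7 and 14.4 FPKM in ESC7, 26.7, 10.1 and 12.9 in ESC3, and 12.9, 12.6 and 13.7 in ESC11, against 5389, 5419 and 5113 FPKM in fibroblasts. The groups were far apart, and 1 ESC3 library stood above the other ESC libraries. The log2 difference was -8.44 ± 0.22 (SE, limma adjusted p = 3.59e-11), and the ESC mean was lower by a factor of 359. COL1A2, its partner chain (chromosome 9, 81356517 to 81393120), had 0.731 FPKM in the lowest, 0.891 in the median and 2.06 in the highest of the 9 ESC libraries, against 2330.3, 2304 and 2331 FPKM in fibroblasts. Its log2 difference was -10.15 ± 0.15 (limma adjusted p = 4.98e-13). So COL1A2 was close to the expression minimum in ESCs, while COL1A1 stood above it in every ESC library.

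COL3A1, the chain of type III collagen in elastic tissues (chromosome 15, 104067018 to 104105776), had 0.0108, 0.0104 and 0.581 FPKM in ESC7, 0.313, 0.263 and 0 in ESC3, and 0, 0.0459 and 0 in ESC11. In fibroblasts it had 1404, 1319 and 1375 FPKM. It was the chain with the most negative difference of the 31, at -10.25 ± 0.13 on the log2 scale (limma adjusted p = 2.09e-13). COL3A1 reached the expression minimum through fibroblast libraries alone, which fixes its direction. The neighbour of COL3A1 in the RefSeq gene order, COL5A2, was also among the lower chains.

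Type V collagen starts fibres and sets their width. COL5A1 had 10.4, 12 and 13.2 FPKM in the lowest, median and highest ESC library, against 444, 476 and 441 FPKM in fibroblasts (log2 difference -5.14 ± 0.06, limma adjusted p = 5.45e-14). COL5A2 had 3.05, 2.72 and 3.03 FPKM in ESC7, 1.07, 0.726 and 0.948 in ESC3, and 1.21, 1.29 and 1.45 in ESC11, against 719.7, 718 and 723 FPKM in fibroblasts (-8.12 ± 0.06, limma adjusted p = 3.43e-15). COL5A3, the least abundant of the type V chains, had 0.559 to 0.990 FPKM in ESCs and 1.58 to 1.70 in fibroblasts, a log2 difference of -0.55 ± 0.04 that missed the fold minimum. Thus COL5A1 and COL5A2 fell by different amounts, and among the ESC lines ESC7 alone held COL5A2 above 2 FPKM.

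The cartilage chains divided. COL2A1, the chain of type II collagen, had 15.7, 18.0 and 20.3 FPKM in ESC7, 18.4, 18.3 and 16.7 in ESC3, and 13.7, 13.1 and 14.4 in ESC11, against 0.250, 0.460 and 0.318 FPKM in fibroblasts. All ESC libraries were above all fibroblast libraries (log2 difference 3.70 ± 0.07, limma adjusted p = 5.17e-12). COL11A1, a chain of type XI collagen that starts type II fibres, had 16.6, 19.1 and 23.3 FPKM in the lowest, median and highest ESC library and 149, 132 and 141 FPKM in fibroblasts (-2.78 ± 0.05, limma adjusted p = 1.51e-12). It fell less than any other fibrillar chain that was called lower.

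COL11A2, the other type XI chain, went the opposite way. It had 2.68, 3.37 and 3.26 FPKM in ESC7, 1.28, 1.05 and 0.912 in ESC3, and 2.04, 2.19 and 2.21 in ESC11, against 0, 0.0106 and 0 in fibroblasts (log2 difference 1.57 ± 0.07, limma adjusted p = 1.90e-09). COL27A1, a fibrillar chain of cartilage, had 2.46 to 3.57 FPKM in ESCs and 4.85 to 4.92 in fibroblasts. Its log2 difference of -0.55 ± 0.08 (limma adjusted p = 8.93e-05) was under the fold minimum.

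Basement membrane chains split by gene pair. COL4A1 and COL4A2, which make the type IV collagen of nearly all basement membranes, fell. COL4A5 and COL4A6, which occur together in fewer basement membranes such as those of smooth muscle, rose. Over all loci 28.1% rose and 14.9% fell. The median over these 4 chains was 0.35 in the FPKM as deposited, near the 0.44 of all loci, and 0.08 after median-ratio scaling and -0.01 after quantile normalization.

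COL4A1 (chromosome 11, 84372326 to 84456597) had 37.5, 40.2 and 38.1 FPKM in ESC7, 32.6, 33.4 and 31.6 in ESC3, and 28.1, 31.7 and 32.0 in ESC11, against 90.9, 96.7 and 92.7 FPKM in fibroblasts. COL4A2, beside it (chromosome 11, 84542121 to 84675898), had 18.5, 16.9 and 15.9 FPKM in ESC7, 14.2, 16.6 and 15.1 in ESC3, and 14.7, 17.9 and 17.8 in ESC11, against 40.9, 43.1 and 40.7 FPKM in fibroblasts. Both were lower in every ESC library, by -1.44 ± 0.04 and -1.29 ± 0.07 on the log2 scale (limma adjusted p = 1.11e-10 and 1.39e-08). Of the 17 chains that fell, these were the least changed, and ESCs kept both above 14 FPKM.

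COL4A5 (chromosome X, 103655965 to 103716015) had 13.4, 14.9 and 14.4 FPKM in ESC7, 11.1, 10.7 and 10.7 in ESC3, and 12.8, 11.1 and 11.6 in ESC11, against 0.621, 0.813 and 0.978 FPKM in fibroblasts (log2 difference 2.88 ± 0.06, limma adjusted p = 1.01e-11). COL4A6, its neighbour in the RefSeq gene order (chromosome X, 103072684 to 103482470), had 2.83, 3.00 and 3.32 FPKM in the lowest, median and highest ESC library. In fibroblasts it had 0.00729, 0.00807 and 0.0154 FPKM (2.00 ± 0.04, limma adjusted p = 6.68e-12). Both chains reached the expression minimum through ESC libraries alone, which fixes their direction. COL4A5 was the more abundant of them in every library. COL4A4, which the kidney glomerulus uses with COL4A3, reached 0.443 FPKM in ESCs and 0.0175 FPKM in fibroblasts, too low to be tested.

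Both tested network chains fell in ESCs, where 14.9% of all loci fell and 28.1% rose. COL8A1, a chain of the type VIII collagen lattice of vessels and cornea, had 0.594, 1.19 and 2.76 FPKM in ESC7, 1.18, 0.673 and 2.03 in ESC3, and 0.787, 0.976 and 0.445 in ESC11. In fibroblasts it had 528, 497 and 448 FPKM (log2 difference -7.88 ± 0.24, limma adjusted p = 1.51e-10). The ESC libraries of 1 line differed several-fold from each other at these low values. COL8A2, its partner, had 0.122, 0.185 and 0.317 FPKM in the lowest, median and highest ESC library, against 31.1, 30.7 and 29.6 FPKM in fibroblasts (-4.71 ± 0.04, limma adjusted p = 1.26e-14). COL8A2 reached the expression minimum through fibroblast libraries alone, which fixes its direction. COL10A1, the type X chain of growth cartilage, was at most 0.0867 FPKM in any library.

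FACIT chains moved in both directions. Of 6 tested, 2 rose, 3 fell and 1 was not called, where 28.1% of all loci rose and 14.9% fell. The median log2 difference of the 6 was -1.85. The chains that fell, COL12A1, COL14A1 and COL16A1, bind fibres or microfibrils of connective tissue. The chains that rose were COL9A1, which coats type II fibres of cartilage, and COL21A1. Both had reached the expression minimum through ESC libraries alone.

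COL9A1 was the third most abundant collagen of each ESC line. It had 47.6, 45.3 and 42.6 FPKM in ESC7, 37.5, 40.4 and 39.1 in ESC3, and 35.3, 36.5 and 34.3 in ESC11, and it was listed at 0 in all 3 fibroblast libraries (limma adjusted p = 4.17e-15). COL21A1 had 7.66, 8.64 and 10.23 FPKM in the lowest, median and highest ESC library and was likewise listed at 0 in all fibroblast libraries (limma adjusted p = 1.74e-12). An exact 0 in this table can be a failed estimate, since 2 of 70 cytosolic ribosomal protein genes, RPL28 and RPS15A, are listed at 0 in at least 11 libraries, so no fold is given for these chains. COL9A2, the partner of COL9A1, had 1.82, 1.47 and 1.55 FPKM in ESC7, 0.886, 1.04 and 0.704 in ESC3, and 1.06, 1.40 and 1.32 in ESC11, against 1.11, 1.32 and 1.26 FPKM in fibroblasts. The ESC and fibroblast values of COL9A2 overlapped (limma adjusted p = 0.976).

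COL12A1 had 1.43, 2.11 and 4.77 FPKM in the lowest, median and highest ESC library, against 256, 213 and 254 FPKM in fibroblasts (log2 difference -6.20 ± 0.13, limma adjusted p = 7.58e-12). COL14A1 had 2.48, 2.71 and 3.38 FPKM in ESCs, in the same order, against 72.3, 65.2 and 66.7 FPKM in fibroblasts (-4.20 ± 0.05, limma adjusted p = 9.29e-14). COL16A1 had 2.04, 2.32 and 2.63 FPKM in ESCs, against 42.3, 42.9 and 41.1 FPKM in fibroblasts (-3.69 ± 0.05, limma adjusted p = 4.20e-13). All 3 stayed above 1 FPKM in every ESC library.

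**Figure D2:**
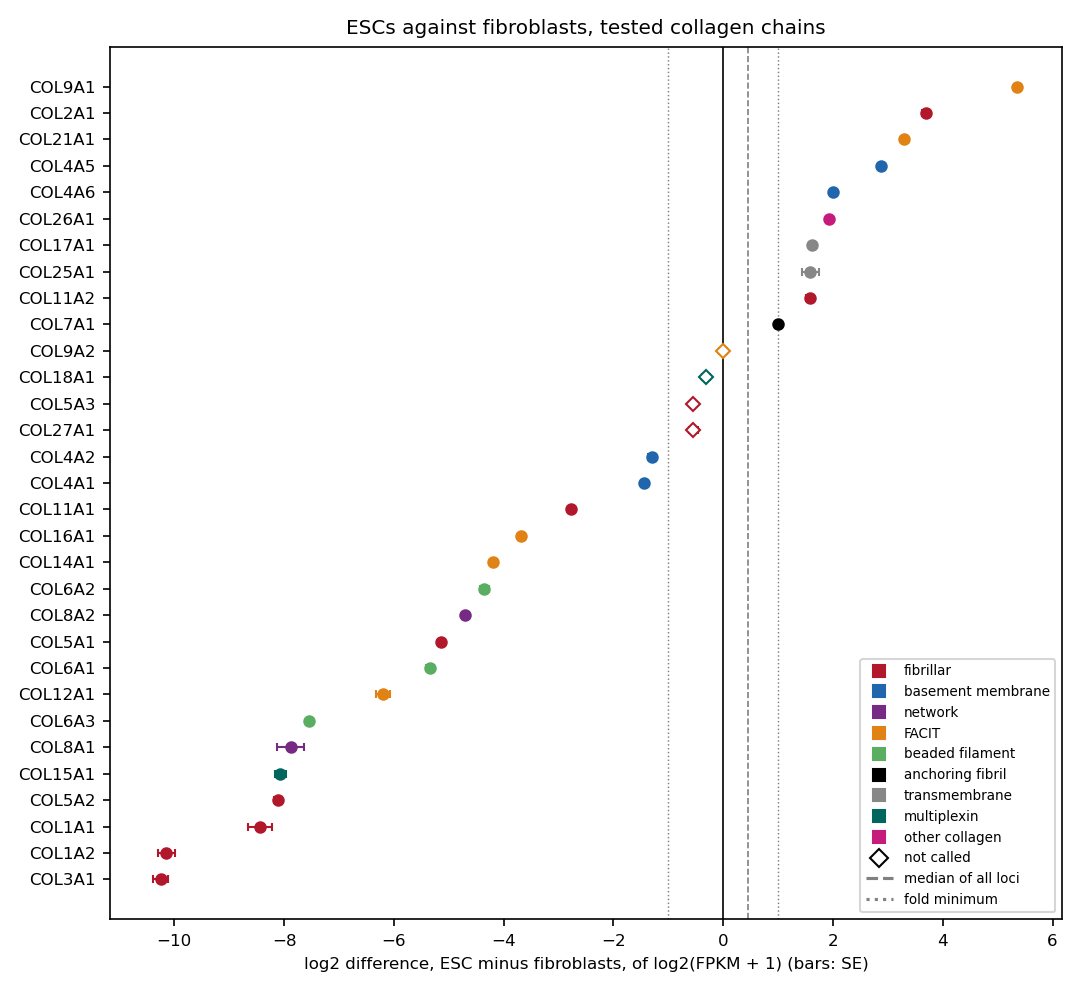
Points give the log2 difference of log2(FPKM + 1), ESC minus fibroblasts, for the 31 tested chains with its SE as a bar, coloured by class, and open diamonds mark the 4 chains that were not called. The dashed line is the median of all loci, 0.44; the positions of COL9A1, COL21A1 and COL25A1, listed at 0 in fibroblasts, depend on the pseudocount of 1.

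The 14 chains outside these classes held the most abundant ESC collagens. Of 9 tested, 4 rose, 4 fell and COL18A1 was not called, where 28.1% of all loci rose and 14.9% fell. COL18A1, the basement membrane zone chain from which endostatin is cut, had 301, 286 and 269 FPKM in ESC7, 269.5, 305 and 284 in ESC3, and 206, 261 and 223 in ESC11, against 313, 349.8 and 331 FPKM in fibroblasts. By its mean it was the highest collagen of all 3 ESC lines and the ninth highest of the fibroblasts, and it was the highest in 8 of 9 ESC libraries, COL7A1 leading in the first ESC11 library. The groups came close without overlapping, and the log2 difference of -0.32 ± 0.07 (limma adjusted p = 0.00169) was under the fold minimum.

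COL7A1, which forms the anchoring fibrils beneath the epidermis (chromosome 13, 34507197 to 34553582), had 210.3, 209 and 214 FPKM in ESC7, 236, 231 and 235 in ESC3, and 222, 218 and 215 in ESC11, against 108, 109 and 113 FPKM in fibroblasts. Every ESC library was above every fibroblast library, and the ESC mean was 2.01 times the fibroblast mean. The log2 difference of 1.00 ± 0.03 (limma adjusted p = 3.34e-11) lay on the fold minimum, and it was 0.75 after quantile normalization and 0.55 after median-ratio scaling, where the chain was not called. COL15A1, the relative of COL18A1, had 0.988, 1.40 and 2.38 FPKM in the lowest, median and highest ESC library, against 639, 656 and 707 FPKM in fibroblasts (-8.07 ± 0.10, limma adjusted p = 1.69e-13). The related pair therefore differed widely, with COL18A1 nearly level between the groups and COL15A1 lower in ESCs by a factor of 439.

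Type VI collagen forms beaded filaments around cells from COL6A1, COL6A2 and COL6A3. All 3 chains fell in ESCs, where 14.9% of all loci fell and 28.1% rose. COL6A1 had 8.83, 7.33 and 8.89 FPKM in ESC7, 4.03, 4.93 and 3.98 in ESC3, and 6.99, 8.39 and 8.03 in ESC11, against 304, 296 and 314 FPKM in fibroblasts (log2 difference -5.34 ± 0.07, limma adjusted p = 3.48e-13). COL6A2 had 16.0, 18.7 and 21.2 FPKM in the lowest, median and highest ESC library, against 393, 395 and 415 FPKM in fibroblasts (-4.36 ± 0.08, limma adjusted p = 3.41e-12). COL6A3 had 0, 0.0240 and 0.0845 FPKM in ESCs, in the same order, against 194, 194 and 187 FPKM in fibroblasts (-7.55 ± 0.04, limma adjusted p = 4.43e-16). COL6A3 reached the expression minimum through fibroblast libraries alone, which fixes its direction. The third chain was thus at or near 0 in ESCs that had the other two.

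COL26A1, a small secreted collagen, rose. It had 14.1, 14.9 and 14.0 FPKM in ESC7, 21.1, 19.7 and 19.0 in ESC3, and 17.5, 16.6 and 17 in ESC11, against 3.32, 4.06 and 3.89 FPKM in fibroblasts (log2 difference 1.92 ± 0.05, limma adjusted p = 4.95e-11). Both tested transmembrane chains rose as well, where 28.1% of all loci rose, and both had reached the expression minimum through ESC libraries alone. COL17A1, the hemidesmosome chain of basal epithelial cells, had 4.02, 3.63 and 3.91 FPKM in ESC7, 0.927, 1.11 and 1.18 in ESC3, and 3.74, 3.47 and 3.51 in ESC11, against 0.116, 0.225 and 0.185 FPKM in fibroblasts (1.61 ± 0.05, limma adjusted p = 2.33e-10; 0.97 after quantile normalization and 0.58 with a pseudocount of 5, not called). COL25A1, a chain known from neurons, had 1.03, 1.71 and 3.88 FPKM in the lowest, median and highest ESC library and was listed at 0 in all fibroblast libraries.

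Summed over the 41 chains, collagen reached 735 ± 45.2 FPKM in ESCs (SD, n = 9) and 13336 ± 145 FPKM in fibroblasts (SD, n = 3). Its make-up differed by class. Fibrillar chains held 9.78% of the sum in ESCs and 77.4% in fibroblasts. Basement membrane chains held 8.98% in ESCs and 1.02% in fibroblasts, although their summed FPKM was 66.0 in ESCs and 136 in fibroblasts. FACIT chains held 7.82% in ESCs and 2.64% in fibroblasts. Network chains held 0.191% in ESCs and 3.91% in fibroblasts. The remaining classes held 73.2% in ESCs and 15.1% in fibroblasts. The chains therefore ranked differently. COL18A1 and COL7A1 held 37.2% and 27.5% of the sum in ESC7, 37.8% and 30.8% in ESC3, and 33.8% and 32.1% in ESC11. In fibroblasts COL1A1, COL1A2 and COL3A1 led with 39.8%, 17.4% and 10.24%. These shares compare FPKM, which is scaled to transcript length. The chosen rows of COL18A1, COL1A1 and COL15A1 cover only 13481, 8359 and 11525 bp of the genome build. They are 1 of 2, 1 of 4 and 1 of 6 rows of these symbols. With all rows of a symbol summed, fibrillar FPKM in fibroblasts was 14278 where it was 10316 with 1 row each.

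**Figure D3:**
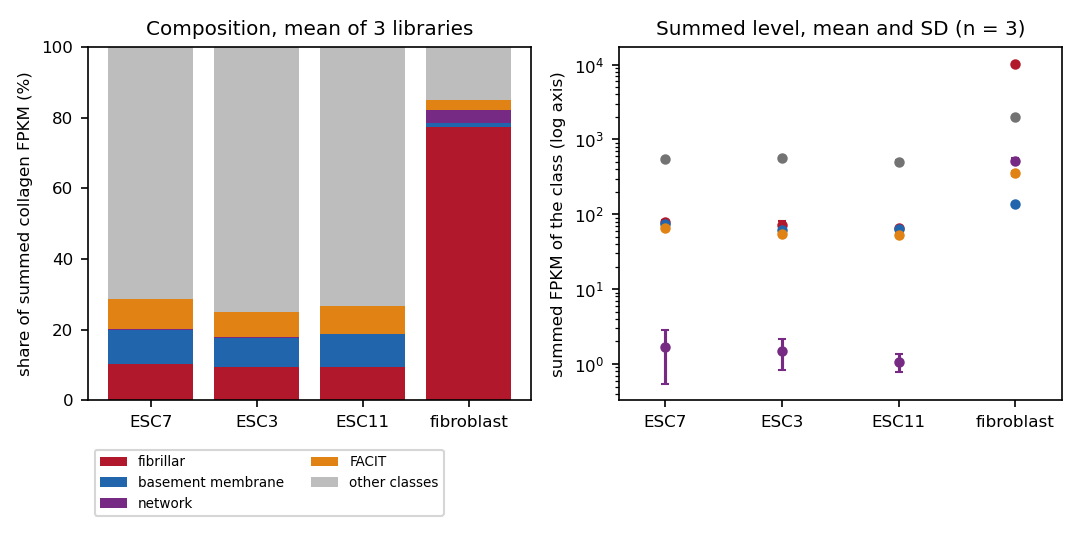
Left, stacked bars show the mean share (%) of summed collagen FPKM held by each class in ESC7, ESC3, ESC11 and fibroblasts (3 libraries each). Right, points with SD give the summed FPKM of each class on a log axis; all 5 classes are higher in fibroblasts, and fibrillar chains, at 71.9 FPKM in ESCs and 10316 FPKM in fibroblasts, differ widely.

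The 3 ESC lines shared this make-up. Fibrillar chains held 10.3% ± 0.602 of the sum in ESC7, 9.47% ± 1.27 in ESC3 and 9.54% ± 0.413 in ESC11 (SD, n = 3 each). Basement membrane chains held 9.57% ± 0.300 in ESC7, 8.15% ± 0.0925 in ESC3 and 9.21% ± 0.419 in ESC11. FACIT chains held 8.51% ± 0.191 in ESC7, 7.25% ± 0.136 in ESC3 and 7.71% ± 0.319 in ESC11. The basement membrane and FACIT shares of ESC7 lay above those of ESC3 by more than their spread, and the fibrillar shares did not. These shares carry no test.

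Chains that assemble into 1 protein were compared within each library. The ratio of COL4A1 to COL4A2 was 1.77 to 2.402 in ESCs and 2.22 to 2.28 in fibroblasts, so the fibroblast ratios lay inside the ESC range although both chains fell. COL1A1 over COL1A2 was 6.81 to 21.5 in ESCs and 2.19 to 2.35 in fibroblasts, where the protein itself holds COL1A1 in excess. This ratio rests on 1 of 4 COL1A1 rows and 1 of 2 COL1A2 rows. COL5A1 over COL5A2 was 4.07 to 16.1 in ESCs and 0.610 to 0.663 in fibroblasts. COL6A2 over COL6A1 was 1.99 to 4.67 in ESCs and 1.29 to 1.34 in fibroblasts. The ratios of type I, V and VI chains did not overlap between ESCs and fibroblasts, and each of the 3 ratios was larger in ESCs.

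COL11A1 and COL2A1 were nearly level in ESCs, at a ratio of 1.00 to 1.40, while in fibroblasts the ratio was 288 to 598. COL8A1 over COL8A2 was 1.97 to 15.2 in ESCs and 15.1 to 16.9 in fibroblasts. Taken over group means, COL6A1 over COL6A3 was 217 in ESCs and 1.59 in fibroblasts, and COL1A1 over COL3A1 was 109 in ESCs and 3.89 in fibroblasts. The ratios with COL3A1, COL6A3 and COL8A2 rest on ESC values near 0. Those with COL1A2 and COL5A2 include ESC values near or under the expression minimum. Ratios of FPKM are per length and say nothing of protein.

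**Figure D4:**
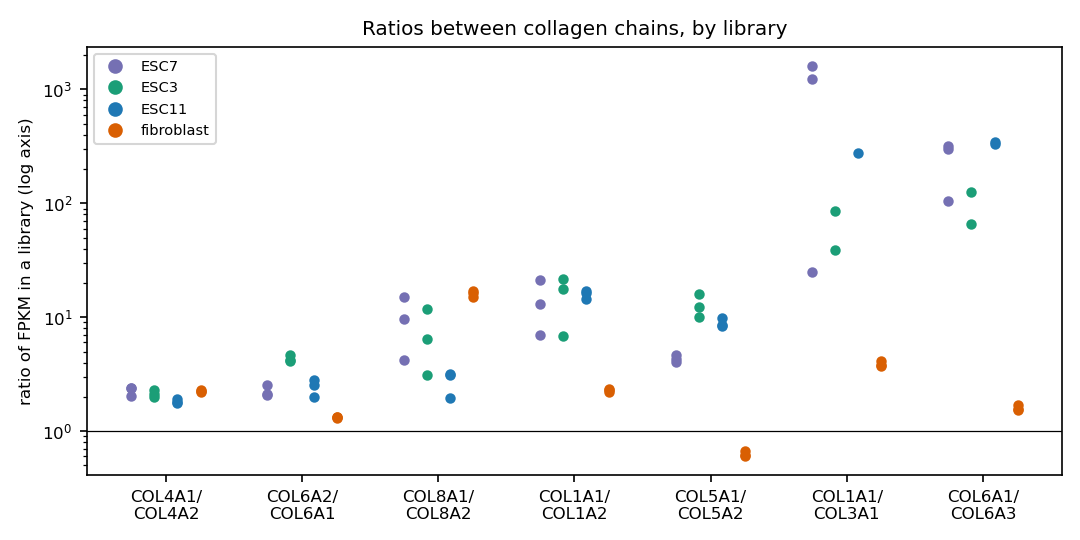
Each point is the ratio of the FPKM of 2 chains in 1 library, on a log axis, for ESC7, ESC3, ESC11 and fibroblasts; libraries with the lower chain at 0 have no point. The COL4A1/COL4A2 ratio sits at 1.77 to 2.402 in ESCs and 2.22 to 2.28 in fibroblasts, while COL5A1/COL5A2 lies above 1 in ESCs and below 1 in fibroblasts.

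Each ESC line was also set against the same 3 fibroblast libraries, so these comparisons are not independent. In ESC7, 26 of 31 tested chains were called, 9 higher and 17 lower, where 43.4% of all loci were called, 29.2% higher and 14.3% lower. ESC3 had the same counts, where 44.1% of all loci were called, 28.6% higher and 15.5% lower. ESC11 had the same counts too, where 42.9% of all loci were called, 27.4% higher and 15.5% lower. COL7A1 was called in ESC3, with a log2 difference of 1.08, and lay under the fold minimum in ESC7 at 0.94 and in ESC11 at 0.98. COL17A1 was called in ESC7 at 2.05 and in ESC11 at 1.96, and lay under the fold minimum in ESC3 at 0.82.

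The parthenogenetic lines together were set against the IVF line, a comparison that asks whether origin moved collagen genes. With limma, 0 of 31 tested chains were called, where 2.2% of all loci were, 1.52% higher and 0.678% lower; 9 chains, 6 higher and 3 lower, had an adjusted p under 0.05 with a smaller difference, where 19.7% of all loci had an adjusted p under 0.05, 12.3% higher and 7.34% lower. An unadjusted p under 0.05 was found for 11 chains and for 32.8% of all loci. Among these 9, COL17A1 had the widest difference, -0.53 ± 0.06, with ESC7 at 3.63 to 4.02 FPKM, ESC3 at 0.927 to 1.18 FPKM and ESC11 at 3.47 to 3.74 FPKM, so that ESC3 alone stood apart. COL2A1 had a log2 difference of 0.35 ± 0.08, COL18A1 of 0.32 ± 0.08, COL5A2 of 0.24 ± 0.06, COL9A1 of 0.24 ± 0.04, COL4A1 of 0.21 ± 0.05 and COL11A1 of 0.19 ± 0.05, all higher in the parthenogenetic mean. COL6A1, at -0.32 ± 0.08, and COL14A1, at -0.18 ± 0.05, were lower there. For COL5A2 and COL6A1 the 2 parthenogenetic lines lay on opposite sides of ESC11. COL5A2 had a mean of 2.93 FPKM in ESC7, 0.916 in ESC3 and 1.32 in ESC11. COL6A1 had a mean of 8.35 FPKM in ESC7, 4.31 in ESC3 and 7.80 in ESC11. With 2 parthenogenetic lines and 1 IVF line, origin and line cannot be told apart.

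The comparison of ESC7 with ESC3, both parthenogenetic, asks how far such lines differ. Of 31 tested chains 2 were called, both higher in ESC7, where 3.38% of all loci were called, 2.34% higher and 1.04% lower. Without the second ESC3 library 1 chain was called, and without the first ESC7 library 4 were. An adjusted p under 0.05 alone was found for 15 chains, 13 higher and 2 lower, and for 39.9% of all loci, 22.9% higher and 17.1% lower. COL17A1, at 4.02, 3.63 and 3.91 FPKM in ESC7 and 0.927, 1.11 and 1.18 FPKM in ESC3, differed by 1.23 ± 0.06 (limma adjusted p = 3.86e-07), and by 0.54, under the fold minimum, with a pseudocount of 5. COL5A2, at 3.05, 2.72 and 3.03 FPKM in ESC7 and 1.07, 0.726 and 0.948 FPKM in ESC3, differed by 1.04 ± 0.07 (limma adjusted p = 2.13e-06). Neither pair of groups overlapped. The COL5A2 difference was 0.97 without the second ESC3 library, 0.96 with quantile normalization and 0.99 with median-ratio scaling, each just under the fold minimum. With a pseudocount of 5 it was 0.42.

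Several further chains were higher in ESC7 than in ESC3 by less than the fold minimum. COL11A2 differed by 0.98 ± 0.08 (limma adjusted p = 9.61e-06), COL25A1 by 0.83 ± 0.19, COL6A1 by 0.82 ± 0.09 and COL12A1 by 0.73 ± 0.16. COL11A2 passed the fold minimum without the first library of ESC3, at 1.05, and without the first of ESC7, also at 1.05. COL26A1 and COL7A1 were the chains on the other side with an adjusted p under 0.05, at -0.45 ± 0.06 and -0.15 ± 0.03.

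Set against ESC11, ESC3 had 1 of 31 tested chains called, where 2.48% of all loci were, 1.49% higher and 0.996% lower. An adjusted p under 0.05 alone was found for 11 chains and for 23% of all loci. That chain was COL17A1, at 0.927, 1.11 and 1.18 FPKM in ESC3 and 3.74, 3.47 and 3.51 FPKM in ESC11 (log2 difference -1.14 ± 0.06, limma adjusted p = 9.93e-07), and the difference was -0.50, under the fold minimum, with a pseudocount of 5. COL6A1 differed by -0.73 ± 0.09 and COL11A2 by -0.60 ± 0.08, under the fold minimum. This comparison uses the same ESC3 libraries as the one with ESC7. ESC7 against ESC11 had 0 of 31 chains called with limma, where 2.94% of all loci were, 2.14% higher and 0.799% lower. An adjusted p under 0.05 alone was found for 11 chains and for 30.9% of all loci, and an unadjusted p under 0.05 for 16 chains and for 41.3% of all loci. COL5A2 came closest, at 0.76 ± 0.07 (limma adjusted p = 2.74e-05), followed by COL12A1 at 0.58 ± 0.16.

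Markers of other cells were also compared between the lines. The 7 fibroblast markers summed to 54.0 to 72.3 FPKM in ESC7, 69.6 to 80.7 in ESC3 and 52.6 to 58.0 in ESC11. The ESC7 sums overlapped those of ESC3 and of ESC11. Between any 2 lines 0 of the 7 were called, where 2.48% to 3.38% of all loci were. The 8 measured endoderm and trophectoderm markers summed to 2.75 to 3.19 FPKM in ESC7, 0.723 to 1.58 in ESC3 and 1.18 to 1.39 in ESC11. In fibroblasts they summed to 2.77 to 3.02 FPKM. Only 2 of the 8 reached the expression minimum, and TTR was listed at 0 everywhere. GATA6, 1 of these 2, was 1.08 ± 0.15 higher in ESC7 than in ESC3 (limma adjusted p = 2.39e-04). The part of these markers in the collagen differences between lines was not tested.

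**Figure D5:**
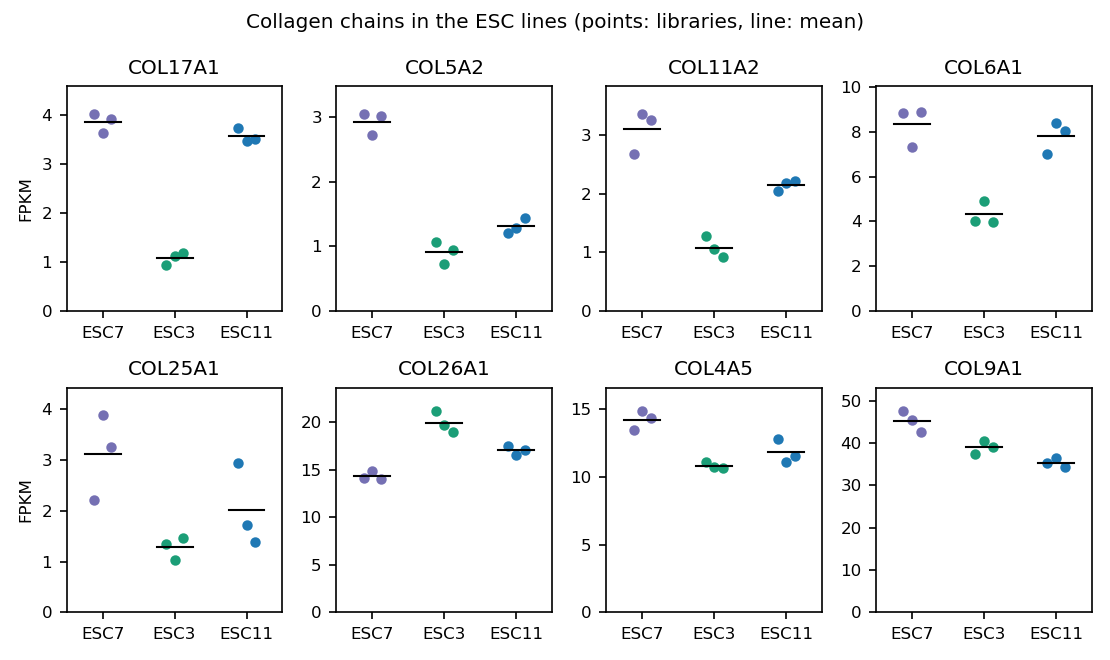
FPKM of 8 collagen chains in the 3 libraries of ESC7, ESC3 and ESC11, with the mean as a line and axes that start at 0. COL17A1 is low in ESC3 alone, at 0.927 to 1.18 FPKM, and COL5A2 is high in ESC7 alone, at 2.72 to 3.05 FPKM.

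The enzymes and chaperones that fold and modify collagen chains were lower in ESCs. Of 17 tested genes of collagen synthesis 14 fell, 0 rose and 3 were not called. Over all loci 14.9% fell and 28.1% rose. The median log2 difference of the 17 genes was -1.60. P4HA3, a catalytic subunit of prolyl 4-hydroxylase, had 0.720, 1.12 and 1.28 FPKM in the lowest, median and highest ESC library, against 81.7, 80.7 and 79.6 FPKM in fibroblasts (-5.32 ± 0.08, limma adjusted p = 4.90e-13). CREB3L1, a transcription factor that switches on type I collagen in mouse bone, had 2.45, 2.80 and 5.11 FPKM in ESCs, in the same order, against 169, 159 and 164 FPKM in fibroblasts (-5.25 ± 0.05). P4HA1 differed by -3.03, P4HA2 by -2.70, P3H3 by -2.36 and PLOD3, a lysyl hydroxylase, by -1.95. The genes not called, PPIB, P3H2 and TMEM38B, had differences of 0.32 to 0.96, on either side of the 0.44 of all loci.

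Collagen processing and cross-linking genes showed 9 lower, 1 higher and 4 not called of 14, with a median of -2.37. Over all loci 14.9% were lower and 28.1% higher. LOX, the enzyme that cross-links fibres, had 5.23, 6.68 and 7.37 FPKM in the lowest, median and highest ESC library, against 288, 273 and 292 FPKM in fibroblasts (-5.25 ± 0.07, limma adjusted p = 1.76e-13). BMP1, which cuts the C-terminal propeptide, differed by -3.48, its enhancer PCOLCE by -3.33, the N-propeptide enzyme ADAMTS2 by -2.96, LOXL4 by -3.36 and LOXL2 by -3.21. TLL2, a relative of BMP1, was the gene that rose, by 1.42 ± 0.07; after quantile normalization 0 of the 14 were called higher and 11 lower.

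Matrix proteins that bind collagen fibres fell in 13 of 14 cases, where 14.9% of all loci fell. Their median was -6.18, and TNXB was not called. TNC had 0.920, 1.96 and 3.30 FPKM in the lowest, median and highest ESC library, against 1739, 1931 and 1814 FPKM in fibroblasts (-9.36 ± 0.12, limma adjusted p = 2.05e-13). FMOD differed by -8.30, ASPN by -8.13, fibronectin (FN1) by -6.88, THBS1 by -6.53 and BGN by -6.44. Of these 14 genes, 8 passed the expression minimum through the fibroblast libraries alone, which fixes their direction. Without any 1 fibroblast library 7 genes were tested and 6 fell.

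Basement membrane partners of type IV collagen were mixed, as the type IV chains were. Of 13 tested 3 rose, 7 fell and 3 were not called, where 28.1% of all loci rose and 14.9% fell. The median of the 13 was -1.02. Those that rose were the laminin chains LAMC3, by 3.85 ± 0.05, and LAMA1, by 2.26 ± 0.08, and the proteoglycan AGRN, by 2.46 ± 0.08. LAMA1 is the laminin chain of the early embryo, and it had 3.39, 6.02 and 8.82 FPKM in the lowest, median and highest ESC library, against 0.610, 0.247 and 0.410 FPKM in fibroblasts. LAMA1 reached the expression minimum through ESC libraries alone, which fixes its direction. Of the 13 genes, 1 passed it through the fibroblast libraries alone. LAMA4 differed by -5.02, NID2 by -3.61 and perlecan (HSPG2) by -2.80. Between lines, NID2 was higher in ESC7 than in ESC3 by 1.78 ± 0.07 and LAMB3 by 1.04 ± 0.05 (limma adjusted p = 4.89e-08 and 4.20e-07).

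Among 6 tested collagen receptors 1 rose, 2 fell and 3 were not called, with a median of -0.64. The 3 of 6 called are close to the 43.1% called over all loci. ITGA2, the alpha chain of a collagen-binding integrin, had 6.49, 7.26 and 8.40 FPKM in the lowest, median and highest ESC library, against 0.798, 0.843 and 0.761 FPKM in fibroblasts (2.20 ± 0.05, limma adjusted p = 8.83e-12). ITGA2 reached the expression minimum through ESC libraries alone, which fixes its direction. ITGB1, its partner chain, differed by -2.29 ± 0.03 and the receptor kinase DDR2 by -2.77 ± 0.04. DDR2 was also the receptor called between parthenogenetic and IVF lines, higher by 1.34 ± 0.04 (limma adjusted p = 1.17e-08), where 2.2% of all loci were called. Against ESC11 it was higher by 1.70 in ESC7, which was called, and by 0.99 in ESC3, under the fold minimum. Origin and line cannot be told apart here.

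Fibroblast markers outside the collagens were lower in ESCs as well. All 7 tested fell, where 14.9% of all loci fell. Of the 7, 3 passed the expression minimum through the fibroblast libraries alone, which fixes their direction. TWIST1 was listed at 0 in all ESC3 libraries. The part of these markers in the collagen differences was not tested.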

How the data were processed

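The deposited table gives 1 FPKM value per locus and library, computed by the authors. STAR 2.4.0b, Cufflinks 2.1.1 and the build Sscrofa10.2 are named in the submitters' processing notes without their roles. Libraries were TruSeq, read as 100 bp paired ends, per the labels' protocols. Strandedness and multi-mapped reads are not given in the sources used here, so rows of near-identical or antisense genes are uncertain. The table holds no counts, so no counting interval can be given.

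The members and gene lists were chosen with earlier results of these data known. Of 35 members with an Ensembl row, 25 had a name in the reference list, the same in all 25 cases, and 6 members are assembled loci named by the table. The other 26 tested rows of these symbols had the same call as the chosen row for ESCs against fibroblasts; 3 COL25A1 rows differed from it for ESC3 against fibroblasts and 1 COL5A2 row for ESC7 against ESC11. RefSeq gene order comes from Sscrofa11.1, and coordinates from the deposited table.

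Group means of all 12 libraries were fitted to log2(FPKM + 1) with limma 3.58.1 in R 4.3.3, variances following the mean, two-sided. ESC is the mean of 3 lines and parthenogenetic the mean of 2. Errors are SD for FPKM and SE for log2 differences. A simulation moved loci with a mean log2(FPKM + 1) of at least 2, so its recovery does not cover chains below that level. Of those moved by a log2 difference of 1.5 between ESCs and fibroblasts 93% were recovered, and 98% at 2. There were 2 false calls among 18278 loci. Values by library are given for chains with a mean of at least 5 FPKM in a group or called between lines, some with the ESC libraries shortened to the lowest, median and highest. Others, such as COL5A3, COL9A2 and COL27A1, were named after their values were seen. Up to 6 called genes of each companion list with the widest differences are named. Python 3.11.15, pandas 2.3.3, numpy 2.4.6 and matplotlib 3.10.9 made tables and plots.

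The alternatives were pseudocounts, filters, no fold minimum, quantile and median-ratio scaling, a replicate term, summed loci, collagen VI as network, and leaving out each library. Allowing rows of other status was added after the data were seen. Replicate numbers are shared between groups, but same-numbered libraries did not deviate together.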

Additional observations from a re-analysis of the deposited data

Results flagged for a closer look

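COL17A1 and COL5A2 are the tested chains whose difference between 2 ESC lines passed the threshold. COL17A1 was 1.23 ± 0.06 higher on the log2 scale in ESC7 than in ESC3, in 3 of 3 libraries, and its difference between ESC3 and ESC11 was -1.14 ± 0.06, lower in 3 of 3 libraries. COL5A2 was 1.04 ± 0.07 higher in ESC7 than in ESC3, in 3 of 3 libraries. Both COL17A1 differences lost the fold minimum with a pseudocount of 5, at 0.54 and -0.50. The COL5A2 difference lost it there too, at 0.42. It was also under the fold minimum with quantile normalization (0.96), with median-ratio scaling (0.99) and without the second ESC3 library (0.97). No formal test for a single library that stands apart was run in groups of 3.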

How the results depend on the processing

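Of the counts and class shares, 125 stayed within 1.5 times their value or within 1 SD under the alternatives and 27 moved; with 1 library left out the numbers were 151 and 5. With the replicate block the count for ESCs against fibroblasts was 27, and the block changed 0 of 248 calls; same-numbered libraries correlated at -0.0900 to 0.0867, so the numbers do not pair them. Leaving out each library gave 23 to 27 called chains for ESCs against fibroblasts, 23 to 26 for each line, 1 to 4 for ESC7 against ESC3 and 6 to 13 fibril-associated genes; the low values against fibroblasts came where a fibroblast library was left out and 2 can no longer meet the filter. Without a fold minimum there were 6 receptor genes, 9 chains for parthenogenetic against IVF, 15 for ESC7 against ESC3, and 11 each for ESC3 and ESC7 against ESC11. ESC7 against ESC3 gave 4 with a pseudocount of 0.1, 0 with 5, and 1 each with a filter of 5 FPKM, quantile and median-ratio scaling. ESC3 against ESC11 gave 0 with a pseudocount of 5 and 0 with the filter of 5. ESC7 against ESC11 gave 1 with a pseudocount of 0.1 and 2 with rows of other status allowed. With loci summed, shares in ESCs and fibroblasts were 6.52% and 1.94% FACIT, 7.45% and 0.741% basement membrane, 10.7% and 77.8% fibrillar, 75.2% and 16.7% other classes, and network was 2.84% in fibroblasts. With collagen VI as network, network held 3.77% and 10.6% and other classes 69.7% and 8.35%. The median of all loci was 0.44 as deposited, 0.10 after quantile and 0.06 after median-ratio scaling; relative to it the collagen median was -1.89, -1.80 and -1.95. All loci called split into 5144 higher and 2730 lower as deposited, 3489 and 3476 after quantile, and 3511 and 3754 after median-ratio scaling. COL7A1 fell just under the fold minimum in 6 of the fits that leave out 1 library, from 0.989, and at 0.98 with a pseudocount of 5. COL9A2, near 0, turned positive at 0.00264 with a pseudocount of 5 and in 6 such fits, which ranged over -0.0406 to 0.0256. With a pseudocount of 5, COL11A2 at 0.50, COL17A1 at 0.58, COL25A1 at 0.50 and COL4A6 at 0.68 lost the fold minimum. COL5A3 reached -1.02 and COL17A1 0.97 with quantile normalization. Each cause not shown by the setting was not tested.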

Other observations

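COL24A1, a fibrillar chain that the table gives only on a row that the selection left out, had 0.323 to 0.725 FPKM in ESC libraries and 1.98, 2.1 and 1.97 FPKM in fibroblast libraries. MRC2, a receptor that takes up collagen, was listed at 0 in all ESC libraries and at 340.0, 0 and 0 FPKM in the fibroblast libraries, so it was not tested.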
